A study of Homo sapiens with 15 samples.

Results

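The data concern 10 genes that FOXO transcription factors are known to switch on, namely IRS2, CCNG2, TXNIP, BCL6, SESN1, KLF9, CITED2, PDK4, GADD45A and SOD2. They were found by symbol in the platform annotation of both deposited value tables, through probe sets assigned to 1 gene, which gave 22 probe sets for 10 genes of 12149 genes in all. All 10 lay above the dimmest 25% of genes, so all 10 were among the 9111 genes tested. The samples were total RNA of the HMT3522 human breast epithelial lines grown in 3-dimensional laminin-rich matrix. Each of 9 agents, with 1 sample each, was applied to the malignant T4 line (T4R, n = 9), and the other groups were T4 (n = 3) and the nonmalignant S1 line (n = 3) with no agent named. The agents were LY294002, an inhibitor of PI3K; GM6001, an inhibitor of metalloproteinases; an agent labelled MMPs and ADAMs, taken here as an inhibitor of those proteases; TNF protease inhibitor-2; PD98059, an inhibitor of the ERK pathway kinase MEK; dominant-negative Rap1, which blocks a small GTPase; Tyrphostin AG 1478, a kinase inhibitor of EGFR; mAb225, an antibody to EGFR; and AIIB2, an antibody to β1-integrin. Doses and times of treatment were not stated in the labels, and a vehicle is mentioned without saying which samples received it. T4 and S1 are 1 line each, and the labels do not tell whether the samples of 1 group were separate cultures. The p-values therefore reflect the spread among these samples alone, which may be technical. That spread is pooled over the groups, so it also holds the differences between the 9 agents.

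FOXO proteins are transcription factors that PI3K signalling holds back. PI3K activates the kinase AKT, which phosphorylates FOXO proteins and keeps them out of the nucleus; when PI3K or AKT is blocked, FOXO proteins enter the nucleus and switch on genes of cell-cycle arrest, stress defence and fuel use. In mammary epithelium this route lies downstream of EGFR and of integrins. The question was whether LY294002, which blocks PI3K, raised the 10 genes more than the other agents did.

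FOXO proteins bind DNA through a short core sequence, so promoter windows are shown for TXNIP, the gene with a match to the full FOXO core, and for BCL6, SESN1 and CITED2, the genes that rose with the agents. Windows span 250 bases before to 50 bases after an annotated start and come from RefSeq on GRCh38.p14, written 5′ to 3′ on the gene's strand. Capitals mark GTAAACA or the shorter AAACA and their reverse complements TGTTTAC and TGTTT, so that a GTAAACA match also holds AAACA. Genes can have several annotated starts. TXNIP has 2 windows, BCL6 2, SESN1 3 and CITED2 3, and the one printed was picked after the search, as that with GTAAACA for TXNIP and that with the most AAACA matches for the others. The other windows hold 2 AAACA matches for TXNIP, 0 for BCL6, 1 and 0 for SESN1 and 0 in both for CITED2. The printed TXNIP window is chr1:145996530-145996829, minus strand.
TXNIP: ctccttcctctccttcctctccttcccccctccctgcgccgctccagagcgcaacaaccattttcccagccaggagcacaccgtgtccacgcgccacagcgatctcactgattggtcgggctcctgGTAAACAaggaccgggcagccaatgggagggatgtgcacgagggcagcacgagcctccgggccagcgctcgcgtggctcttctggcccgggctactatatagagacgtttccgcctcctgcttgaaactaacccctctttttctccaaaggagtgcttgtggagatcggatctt
The printed BCL6 window is chr3:187736452-187736751, minus strand.
BCL6: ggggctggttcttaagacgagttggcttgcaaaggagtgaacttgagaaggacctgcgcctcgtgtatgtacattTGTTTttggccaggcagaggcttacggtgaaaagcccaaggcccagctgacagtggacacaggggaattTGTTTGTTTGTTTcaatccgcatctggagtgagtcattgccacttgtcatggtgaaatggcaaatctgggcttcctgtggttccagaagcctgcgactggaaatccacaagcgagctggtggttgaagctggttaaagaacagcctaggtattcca
The printed SESN1 window is chr6:109008939-109009238, minus strand.
SESN1: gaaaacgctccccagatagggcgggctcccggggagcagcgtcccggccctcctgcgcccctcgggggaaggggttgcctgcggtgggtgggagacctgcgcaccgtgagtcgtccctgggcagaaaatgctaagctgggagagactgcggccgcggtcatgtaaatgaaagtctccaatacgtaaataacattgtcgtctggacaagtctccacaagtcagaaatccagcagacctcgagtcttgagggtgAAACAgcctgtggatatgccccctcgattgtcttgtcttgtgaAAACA
The printed CITED2 window is chr6:139374599-139374898, minus strand.
CITED2: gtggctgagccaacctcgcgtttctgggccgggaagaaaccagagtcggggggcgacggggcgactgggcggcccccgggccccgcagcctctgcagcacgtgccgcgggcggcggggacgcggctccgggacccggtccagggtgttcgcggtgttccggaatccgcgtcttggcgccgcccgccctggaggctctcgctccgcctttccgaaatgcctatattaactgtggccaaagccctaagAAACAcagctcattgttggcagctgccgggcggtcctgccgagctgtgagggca
In all, 18 windows of 9 of the genes were searched on both strands. GADD45A is named only. GTAAACA was found in 1 window, that of TXNIP printed above, 124 bases before the start, and in 3.42% of all 35116 windows. AAACA was found in 10 of the 18 windows, covering 8 genes, against 44.4% of all windows and 49.5% of all genes. A gene counts when any of its windows matches. These 9 genes have more windows per gene than all 27305 genes with their 35116 windows, so the counts of genes are not alike. A match is a description of letters and not a binding site.

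Medians of the samples ran over 7.3 to 7.4 (log2). The 8 samples of the first array type (S1 samples 1 and 2, T4, GM6001, MMPs and ADAMs, LY294002) and the 7 of the second form separate value tables, and the labels do not say whether both were normalized together. Levels below are deposited log2 values, and differences come from a limma fit with the table as a term. Mammary epithelial markers averaged 10.4 to 10.9 in T4R, 10.2 to 10.6 in T4 and 10.3 to 10.4 in S1 samples over the 8 measured, as the label says. The 3 endothelial markers averaged 6.74 to 6.89 in T4R, 6.75 to 6.82 in T4 and 6.72 to 6.80 in S1, and all 3 lay in the dimmest 25% of genes. Of the leukocyte and adipocyte markers, 1 of 3 in each list lay above it, with averages of 6.71 to 7.41 over all samples. The 5 fibroblast markers averaged 7.60 to 8.06 in T4R, 7.50 to 7.66 in T4 and 7.36 to 7.44 in S1, and their part in the results was not tested. In these bulk samples, fewer cells of a kind and less RNA per cell cannot be told apart.

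T4 sample 3 stood apart and touches the 10 genes more than most. It differed at least 2-fold from T4 samples 1 and 2 in 356 and 426 of 9111 genes, while samples 1 and 2 differed in 6. Of the 10 genes, 6 were at least 2-fold lower in T4 sample 3 than in the mean of samples 1 and 2, as were 2.57% of all genes. The log2 differences were -2.56 for TXNIP, -1.64 for BCL6, -1.38 for SOD2, -1.28 for IRS2, -1.22 for KLF9 and -1.08 for CCNG2. They come from the probe set used for each gene. Other probe sets of TXNIP and CCNG2 also fell at least 2-fold, as did the brighter other one of KLF9. Those of IRS2, BCL6 and SOD2 did not. Their levels in T4 samples 1 to 3 were 10.59, 10.35 and 9.66 for IRS2 and 7.70, 7.67 and 7.07 for BCL6. The brightest other one of SOD2 had 10.68, 11.08 and 10.44. S1 sample 3, the S1 sample of the second array type, differed from S1 samples 1 and 2 in 553 and 648 genes, against 16 between those, and its SOD2 difference from their mean was -2.34. Where leaving out T4 sample 3 ended a call, turned a direction or moved a difference of the 10 genes by over 1.5 times, the value without it is also given.

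In T4 against S1, 5 of the 10 genes fell and 0 rose: CITED2, PDK4, BCL6, SESN1 and KLF9. Over all genes 12.3% fell and 14.6% rose. The median log2 difference was -1.04 over the 10 genes, -0.71 without T4 sample 3, and 0.01 over all 9111. Without that sample 4 of the 10 fell, KLF9 not among them, and TXNIP was higher. For 7 of the 10, every T4 sample lay below every S1 sample, which held for 17.5% of all genes. When the 9 agents were set against T4, 3 of these genes rose, CITED2, SESN1 and BCL6, with 6.46% of all genes higher and 8.44% lower, and 0 of the 10 fell. For those 3, every T4R sample lay above every T4 sample, as for 6.76% of all genes. The median difference was 0.71 over the 10 genes and -0.0041 over all. The same 3 genes rose without T4 sample 3, but the median over the 10 genes was then 0.29.

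**Figure D1:**
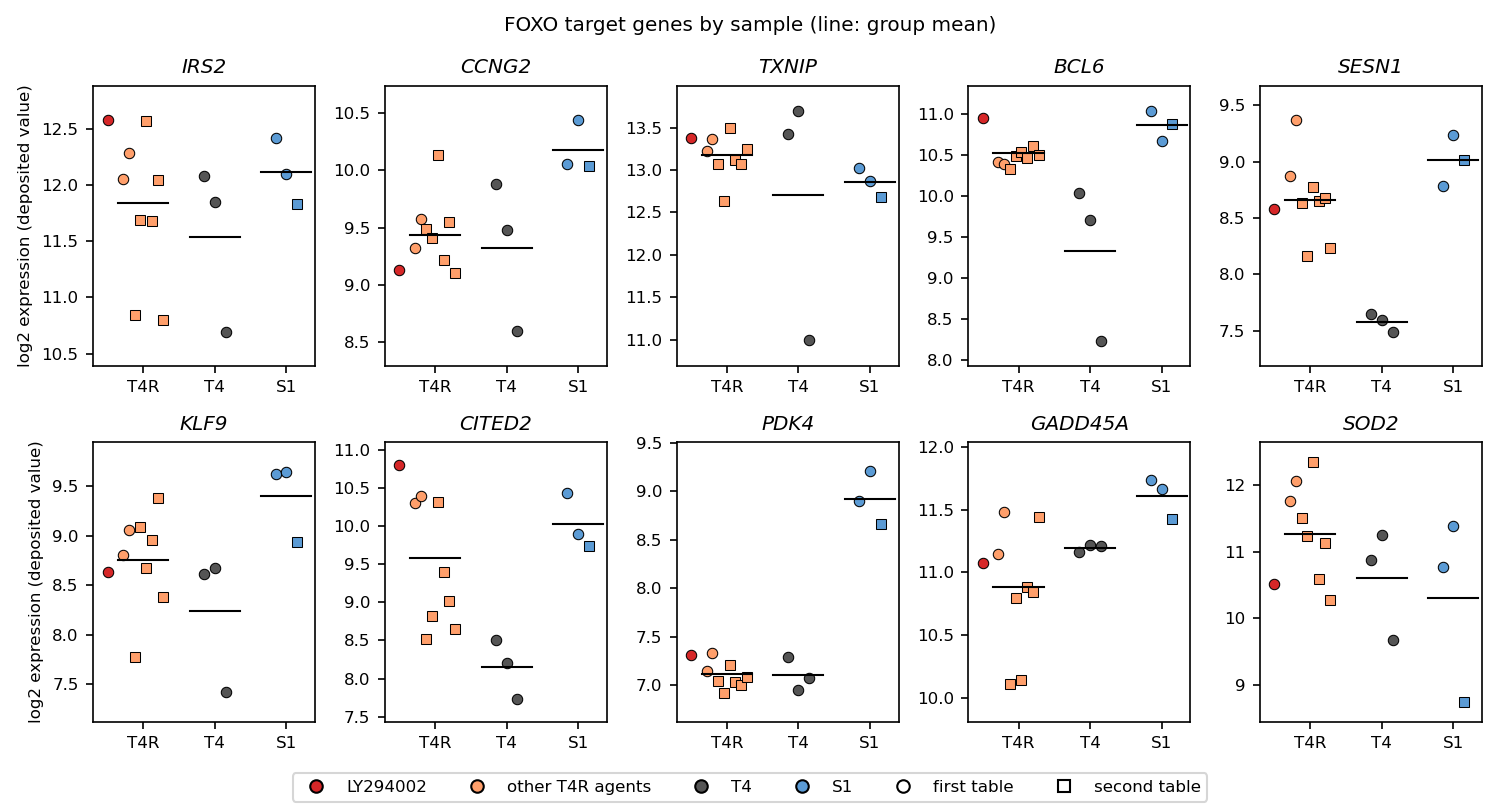
Deposited log2 expression (y axis) of each of the 10 genes in every sample, by group (x axis: T4R, T4, S1); points are samples, circles the first table, squares the second, red LY294002, and lines are group means. T4R points lie above all T4 points for BCL6, SESN1 and CITED2, PDK4 stays near 7.1 in T4R and T4 against 8.92 in S1, and 1 T4 sample is far below the others for TXNIP and BCL6.

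Among the regulators of transcription, CITED2 moved most. CITED2 encodes a partner of the coactivators CBP and p300 that restrains the hypoxia factor HIF1A. It had a lowest, median and highest level of 8.52, 9.39 and 10.80 in T4R, 8.51, 8.20 and 7.73 in T4 samples 1 to 3, and 10.43, 9.89 and 9.74 in S1 samples 1 to 3. The T4 samples were lowest, and the T4R samples spanned the range between T4 and S1 and beyond. CITED2 fell by 2.25 ± 0.41 on the log2 scale in T4 against S1 (SE, adjusted p = 0.00138, limma), which is 4.76-fold. It rose with the agents by 2.19 ± 0.38, 4.55-fold over T4 (adjusted p = 0.00223), and differed from S1 by -0.06 ± 0.34 (95% interval -0.80 to 0.67, adjusted p = 0.925). The level was 10.30 to 10.80 in the 3 agents of the first table and 8.52 to 10.31 in the 6 of the second, with dominant-negative Rap1 the only one of those above 10. With the difference between tables taken from the S1 samples alone, the mean rise was 1.71.

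BCL6 encodes a transcriptional repressor best known from germinal-centre B cells. Its level was lowest at 10.33, median 10.50 and highest at 10.95 in T4R, 10.04, 9.71 and 8.23 in the T4 samples, and 11.05, 10.68 and 10.89 in the S1 samples. All 9 agents lay above the T4 samples, and they overlapped S1 through LY294002, the highest, which was above S1 samples 2 and 3. T4 sample 3 was far below the other T4 samples. BCL6 fell by 1.56 ± 0.34 in T4 against S1 (adjusted p = 0.00409) and rose with the agents by 1.24 ± 0.32 against T4 (adjusted p = 0.0182). Without T4 sample 3 the differences were -1.02 (adjusted p = 0.00115) for T4 against S1 and 0.69 (adjusted p = 0.0165) for the agents against T4. The rise with the agents missed the threshold without LY294002 (1.09, adjusted p = 0.0542) and within the first table alone (1.26, adjusted p = 0.0969), and the fall in T4 missed it when only S1 and T4 samples entered the fit (-1.53, adjusted p = 0.111).

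KLF9, a zinc-finger regulator that glucocorticoids also induce, ranged over 7.78, 8.80 and 9.38 (lowest, median, highest) in T4R. It had 8.61, 8.67 and 7.42 in the T4 samples and 9.62, 9.64 and 8.93 in the S1 samples. All T4 samples lay below all S1 samples, and the T4R samples overlapped both groups. KLF9 fell by 1.25 ± 0.39 in T4 against S1 (adjusted p = 0.0292). This call was lost without T4 sample 3 (-0.84, adjusted p = 0.12), without S1 sample 1 (-1.17, adjusted p = 0.0981), without S1 sample 2 (-1.16, adjusted p = 0.103) and with S1 and T4 samples only (-1.40, adjusted p = 0.066). The difference between the agents and T4 was 0.69 ± 0.36 (adjusted p = 0.233), and 0.29 without T4 sample 3.

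Of the stress-defence genes, SESN1, which encodes a sestrin that restrains the growth kinase complex mTORC1, fell in T4 and rose with the agents. Its levels were 8.16, 8.65 and 9.37 (lowest, median, highest) in T4R, 7.65, 7.60 and 7.49 in T4 and 8.78, 9.23 and 9.02 in S1. The T4 samples lay close together and below all others. SESN1 fell by 1.54 ± 0.22 on the log2 scale in T4 against S1 (2.90-fold, adjusted p = 0.000212), rose by 1.29 ± 0.20 in T4R against T4 (2.45-fold, adjusted p = 0.001), and differed between T4R and S1 by -0.25 ± 0.18 (adjusted p = 0.37). Both calls held in every alternative that gave a test, including the one without T4 sample 3.

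SOD2, the mitochondrial superoxide dismutase, spread widely within every group, with 10.27, 11.23 and 12.34 (lowest, median, highest) in T4R, 10.87, 11.25 and 9.68 in T4 and 10.77, 11.39 and 8.75 in S1. The groups overlapped. Neither T4 against S1 (0.04 ± 0.63, adjusted p = 0.977) nor the agents against T4 (1.19 ± 0.59, adjusted p = 0.205) passed the test. These were 0.50 and 0.73 without T4 sample 3. The difference between the agents and T4 was 0.38 without both S1 sample 3 and T4 sample 3, and 2.22 with the difference between tables taken from the S1 samples alone, in which S1 sample 3 is the low one. The agents against S1 gave 1.22 ± 0.52 (adjusted p = 0.112), and 1.57 (adjusted p = 0.0354) once LY294002 was left out. Within the first table alone it was 0.36 (adjusted p = 0.723).

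Among the genes of insulin signalling and fuel use, PDK4 fell in T4 and was below S1 with every agent. PDK4 encodes a kinase that shuts down pyruvate dehydrogenase and spares glucose. Its level was 6.92, 7.09 and 7.34 (lowest, median, highest) in T4R, 7.29, 6.95 and 7.08 in T4 and 8.90, 9.20 and 8.66 in S1. T4R and T4 samples overlapped, and all of them lay below all S1 samples. Against S1, PDK4 fell by 1.90 ± 0.11 in T4 (3.73-fold, adjusted p = 1.41e-07) and differed by -1.71 ± 0.09 in T4R (adjusted p = 6.51e-08), and the agents differed from T4 by 0.19 ± 0.11 (95% interval -0.04 to 0.41, adjusted p = 0.265). Levels near 7.1 lay below the median of every sample, so these falls may be understated.

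IRS2, the adaptor that couples insulin and IGF receptors to PI3K, was bright, at 10.80, 12.04 and 12.58 (lowest, median, highest) in T4R, 12.08, 11.85 and 10.69 in T4 and 12.42, 12.10 and 11.83 in S1. All groups overlapped. The differences were -0.79 ± 0.44 for T4 against S1 (adjusted p = 0.212) and 0.72 ± 0.41 for the agents against T4 (adjusted p = 0.273). They were -0.36 and 0.30 without T4 sample 3. TXNIP, which binds thioredoxin and limits glucose uptake, was the brightest of the 10, at 12.64, 13.22 and 13.49 in T4R, 13.43, 13.69 and 11.00 in T4 and 13.02, 12.87 and 12.68 in S1. T4 sample 3 was below all other samples, while T4 samples 1 and 2 were above all others, except that dominant-negative Rap1 lay above T4 sample 1. With all samples TXNIP differed between T4 and S1 by -0.23 ± 0.50 (adjusted p = 0.784), and without T4 sample 3 it was higher in T4 by 0.62 (adjusted p = 0.0294). A fit that pairs S1 and T4 by replicate number (replicate block) and keeps the table term also had it higher, by 0.61 (adjusted p = 0.00596). With that term present the block rests on samples 1 and 2 only, and the blocked fit without it gave -0.16 (adjusted p = 0.866). The agents differed from T4 by 0.62 ± 0.47 with T4 sample 3 (adjusted p = 0.418) and by -0.23 without it (adjusted p = 0.494), so the direction of TXNIP turned on that sample.

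Of the cell-cycle genes, CCNG2, an unusual cyclin that accompanies arrest, had 9.10, 9.41 and 10.14 (lowest, median, highest) in T4R, 9.88, 9.48 and 8.60 in T4 and 10.05, 10.43 and 10.03 in S1. Every T4 sample lay below every S1 sample, and the difference of -0.84 ± 0.31 missed the threshold (adjusted p = 0.0576). It was -0.48 (adjusted p = 0.231) without T4 sample 3. It passed with the replicate block and table (-0.56, adjusted p = 0.0339), which rests on samples 1 and 2. The same difference without both samples 3 and without the block had an adjusted p of 0.172, and the block without the table term gave 0.0786. CCNG2 also passed under 6 other settings that kept all samples, with adjusted p from 0.0337 to 0.045. These were both quantile normalizations, no table term, the table as a random block, the median filter and array weights. With 1 sample left out, it passed without T4 sample 1 (-1.12, adjusted p = 0.0194) and without dominant-negative Rap1 (-0.87, adjusted p = 0.024). GADD45A, which responds to DNA damage and slows entry into mitosis, had 10.11, 10.88 and 11.49 in T4R, 11.17, 11.22 and 11.21 in T4 and 11.74, 11.67 and 11.43 in S1. T4 was again below S1 in every sample, the fitted difference was -0.57 ± 0.28 (adjusted p = 0.147), and the blocked one passed (-0.51, adjusted p = 0.00548), but not without the table term (adjusted p = 0.0716), nor did the same difference without both samples 3 and without the block (adjusted p = 0.322). It passed in the first table alone (adjusted p = 0.0198), with S1 and T4 samples only (0.0162) and with array weights (0.023). For the agents against T4, CCNG2 gave 0.08 ± 0.28 (adjusted p = 0.886) and GADD45A -0.01 ± 0.26 (adjusted p = 0.992). When T4 sample 3 was left out, CCNG2 gave -0.28 and GADD45A 0.0018.

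**Figure D2:**
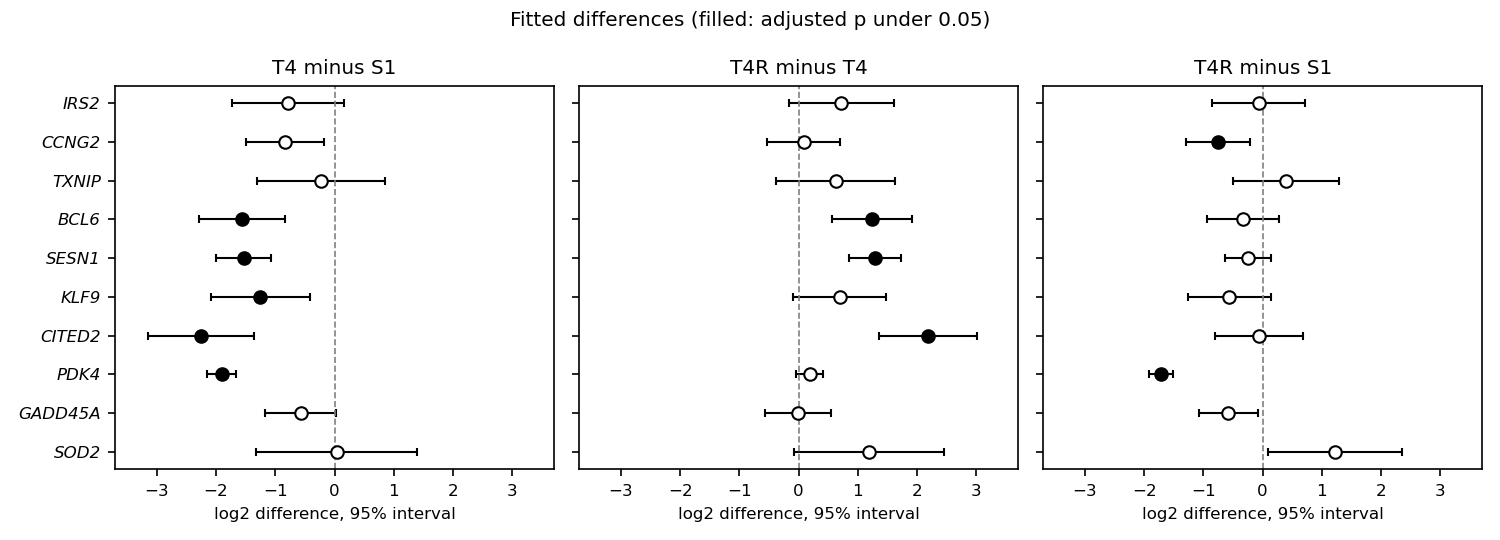
Fitted log2 differences (x axis) with 95% intervals for the 10 genes (y axis) in T4 minus S1, T4R minus T4 and T4R minus S1; filled points passed an adjusted p of 0.05. In all, 5 points are filled in the first panel, 3 in the second and 2 in the third, and SESN1, BCL6 and CITED2 lie between -0.32 and -0.06 in the third.

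Against S1, the T4R samples were lower for 2 of the 10 genes, PDK4 and CCNG2, and higher for 0, with 11.4% of all genes lower and 11.8% higher. PDK4 alone had every T4R sample below every S1 sample, as did 7.46% of all genes. The CCNG2 difference of -0.75 ± 0.25 was close to the threshold (adjusted p = 0.0456). It missed the threshold within the first table (-0.90, adjusted p = 0.111) and in 12 of the 15 fits that left out 1 sample, among them those without any 1 of the 3 S1 samples (adjusted p = 0.0849, 0.16 and 0.0852). GADD45A differed from S1 by -0.58 (adjusted p = 0.0889), and it passed in the first table alone (adjusted p = 0.0366), with array weights (0.0349) and without AIIB2 (0.024). IRS2, BCL6, SESN1, KLF9 and CITED2 differed from S1 by -0.56 to -0.06 and did not pass.

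LY294002 was not told apart from the other agents for any of the 10 genes. In the fit that set its sample against the other 8 agents, with the spread taken from the other groups, 0 of the 10 genes passed in either direction, and 0% of all 9111 genes passed higher and 0% lower. At an unadjusted p under 0.05 there were 440 genes, 4.83% of all, and SOD2 was the only one of the 10. The median of the differences was -0.07, and 0.21 without the table term. It was 0.05 with the table as a random block, 0.02 without the MMPs and ADAMs inhibitor, and negative in the other alternatives. The differences were positive for 5 of the 10. They were 0.64 ± 0.57 for CITED2 (95% interval -0.60 to 1.88), 0.53 ± 0.47 for BCL6 (-0.49 to 1.55), 0.44 ± 0.63 for IRS2 (-0.92 to 1.81), 0.06 ± 0.73 for TXNIP (-1.52 to 1.65) and 0.02 ± 0.16 for PDK4 (-0.34 to 0.38). The negative ones were -0.16 ± 0.40 for GADD45A (-1.03 to 0.70), -0.37 ± 0.43 for CCNG2 (-1.31 to 0.56), -0.40 ± 0.30 for SESN1 (-1.04 to 0.24), -0.41 ± 0.56 for KLF9 (-1.61 to 0.80) and -1.77 ± 0.77 for SOD2 (-3.44 to -0.10, unadjusted p = 0.0398, adjusted p = 0.986). Without the table term the differences were 1.37 for CITED2, 0.84 for IRS2 and -0.85 for SOD2, with adjusted p of 0.887 to 0.997, and in the first table alone that of CITED2 was 0.45. A rise 2-fold larger than with the other agents lies inside the intervals of CITED2, BCL6, IRS2 and TXNIP and outside those of the other 6. Among all genes, the difference for CITED2 lay at the 99.0th percentile, that for BCL6 at 98.2, that for IRS2 at 96.9 and that for SOD2 at 0.2, which are ranks by size and not tests.

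**Figure D3:**
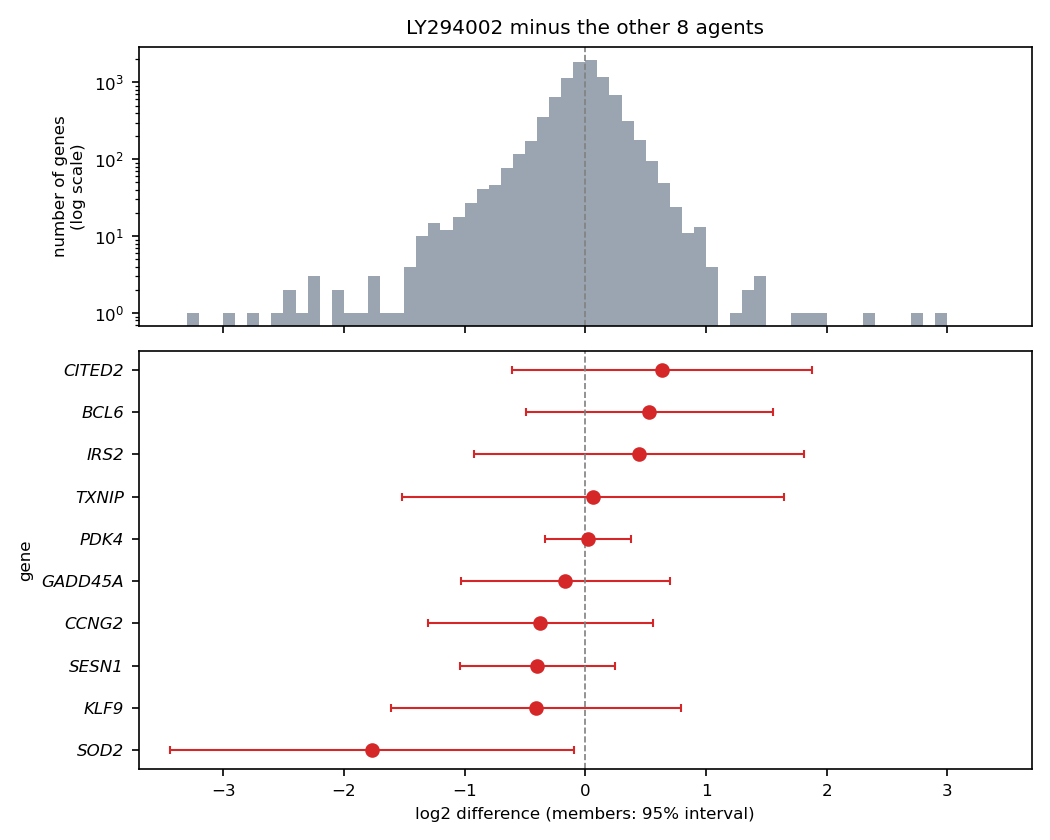
LY294002 minus the other 8 agents: the upper panel counts all 9111 genes by log2 difference (log count axis), and the lower panel gives the 10 genes with 95% intervals. CITED2, BCL6 and IRS2 have the highest values, from 0.44 to 0.64, with intervals across 0, and SOD2 the lowest at -1.77.

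Within its own table, where no term for the array type is needed, LY294002 could be set beside GM6001 and the MMPs and ADAMs inhibitor. CITED2 had 10.80 with LY294002, against 10.30 with GM6001 and 10.39 with the MMPs and ADAMs inhibitor. BCL6 had 10.95 with LY294002, against 10.42 with GM6001 and 10.40 with the MMPs and ADAMs inhibitor. IRS2 had 12.58 with LY294002, against 12.06 and 12.28 with GM6001 and the MMPs and ADAMs inhibitor. LY294002 gave the highest of the 3 values for these genes and TXNIP, 4 of 10, and 39.4% of all genes had it highest. It gave the lowest of the 3 for CCNG2, SESN1, KLF9, GADD45A and SOD2. The share of all genes with LY294002 lowest was not counted, so these genes have no background to be set against. SOD2 had 10.51 with LY294002, against 11.76 with GM6001 and 12.06 with the MMPs and ADAMs inhibitor. In the fit of this table alone, none of the 10 passed between LY294002 and the other agents, with adjusted p of 0.723 for SOD2 (-1.40) and 0.752 for SESN1 (-0.54) as the smallest.

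Across all 9 agents with the table effect removed, LY294002 ranked first for 1 of the 10 genes, BCL6, and 10.7% of all genes had it first. With the table effect taken from the S1 samples alone it ranked first for 2, BCL6 and CITED2, and for 15.5% of all genes. Dominant-negative Rap1 ranked first for 6 of the 10, an agent singled out after its values were seen, and for 23.9% of all genes. With the table effect from S1 alone it was first for 5 and for 20.8% of all genes. Within its own table of 6 agents it was first for 7 of the 10 and for 27.4% of all genes. The median difference from the T4 mean over the 10 genes was 0.53 with LY294002, 1.22 with mAb225, 1.15 with dominant-negative Rap1, 0.84 with PD98059, 0.78 with the MMPs and ADAMs inhibitor, 0.77 with Tyrphostin AG 1478, 0.58 with AIIB2, 0.54 with GM6001 and 0.39 with TNF protease inhibitor-2. Against T4 samples 1 and 2 alone these medians were 0.09 with LY294002, 0.76 with mAb225 as the highest and -0.03 with TNF protease inhibitor-2 as the lowest. Each agent has 1 sample, so these carry no test, and the median over all genes lay between -0.019 and 0.0014 for every agent.

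**Figure D4:**
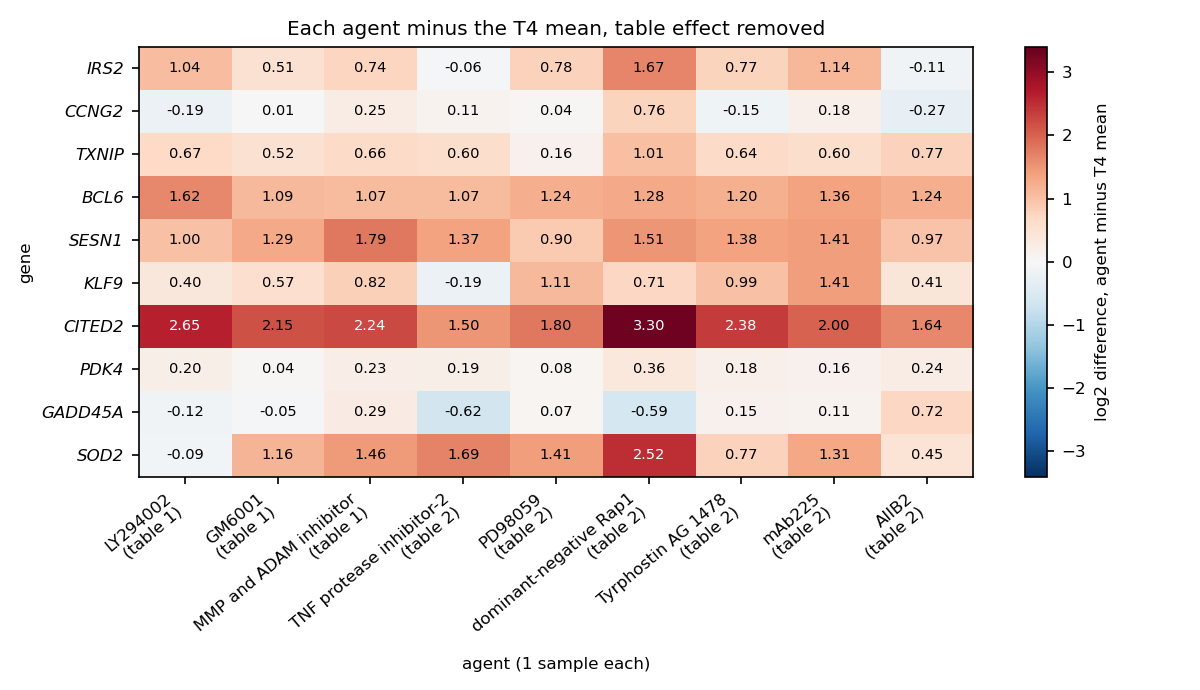
Log2 difference of each agent's single sample from the T4 mean (colour and number) for the 10 genes (rows) and the 9 agents (columns, LY294002 first), with the table effect removed. CITED2, BCL6 and SESN1 are positive in every column, and PDK4 lies between 0.04 and 0.36. LY294002 is near 0 for SOD2 by the probe set used.

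LY294002 against T4 gave 1 call among the 10, CITED2, which rose by 2.65 ± 0.56, 6.27-fold (adjusted p = 0.0243), and 0 lower, with 1.15% of all genes higher and 2.27% lower. BCL6 was higher by 1.62 ± 0.46 and missed the threshold (adjusted p = 0.0761), as did SESN1 at 1.00 ± 0.29 (adjusted p = 0.0787). Without T4 sample 3 BCL6 passed at 1.08 (adjusted p = 0.00596), and CITED2 passed at 2.44 (adjusted p = 0.0439). Without the table term CITED2 missed the threshold (adjusted p = 0.0732). IRS2 gave 1.04 ± 0.62 (adjusted p = 0.434), and CCNG2, GADD45A and SOD2 gave -0.19 ± 0.42, -0.12 ± 0.39 and -0.09 ± 0.76. KLF9 gave 0.40 and TXNIP 0.67. With T4 sample 3 left out the values were 0.62 for IRS2, -0.55 for CCNG2, -0.55 for SOD2, -0.0089 for KLF9 and -0.18 for TXNIP. The value of SOD2 depended on the probe set. With all samples its other probe sets gave -1.26, -0.55 and -0.32, against -0.09 for the one used.

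Other probe sets of the same genes mostly moved alike. The second probe sets of BCL6 (-1.17) and CITED2 (-2.01) also passed in T4 against S1, with adjusted p of 0.00289 and 0.00923 over all probe sets, and in the agents against T4 (0.80 and 1.99, adjusted p = 0.031 and 0.012). In LY294002 against T4, the second probe set of CITED2 gave 2.33, against 2.65 for the one used, and missed the threshold. The 3 probe sets of CCNG2 gave -1.13 to -0.84 in T4 against S1. For KLF9, 1 of 3 probe sets was dim, at 6.73 in T4R, 6.89 in T4 and 6.83 in S1, and showed 0.01, and the other 2 gave -1.25 and -1.14. For SOD2 in LY294002 against the other agents, all 4 probe sets were negative, from -2.67 to -0.49, and none passed.

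The pathway upstream of FOXO was read from a list of 30 components, of which 23 were tested. In T4 against S1, 3 rose and 3 fell, while 14.6% of all genes rose and 12.3% fell. The median of the list was -0.12, and 0.01 over all genes. Without T4 sample 3, 4 of the 23 rose and 2 fell, and the list's median was -0.05. FOXO1, one of the FOXO factors, fell by 2.35 ± 0.35 in T4 (adjusted p = 0.00033), with means of 8.55 in T4 and 10.66 in S1. With the agents it averaged 9.41, higher than T4 by 1.34 ± 0.33 (adjusted p = 0.0145) and different from S1 by -1.01 ± 0.29 (adjusted p = 0.0223). Without T4 sample 3, FOXO1 differed by -1.75 (adjusted p = 2.37e-06) in T4 against S1. The agents then differed from T4 by 0.74 (adjusted p = 0.00191). FOXO3 differed by -0.74 ± 0.43 between T4 and S1 (adjusted p = 0.228) and by 0.93 ± 0.40 between the agents and T4 (adjusted p = 0.139). These were -0.18 (adjusted p = 0.761) and 0.38 (adjusted p = 0.545) without T4 sample 3. AKT1 rose in T4 by 0.70 ± 0.13 (adjusted p = 0.0015), PIK3CD, a catalytic PI3K subunit, rose by 0.95 ± 0.19 (adjusted p = 0.00259), and TSC2, which restrains mTORC1, fell by 2.36 ± 0.45 (adjusted p = 0.00171).

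With the agents against T4, 4 of the 23 components rose and 1 fell, while 6.46% of all genes rose and 8.44% fell. PIK3R3, a regulatory PI3K subunit, rose by 1.23 ± 0.26 (adjusted p = 0.00753) and RHEB, a GTPase that activates mTORC1, by 0.49 ± 0.12 (adjusted p = 0.0156). INPP4B, a phosphatase of PI3K products, fell by 0.91 (adjusted p = 0.00621). Against S1, 3 components were higher and 4 lower in T4R, as were 11.8% and 11.4% of all genes. Between LY294002 and the other agents 0 of 23 passed; the highest differences were 0.92 ± 0.53 for EGFR, 0.90 ± 0.34 for IGF1R, 0.74 ± 0.84 for PIK3R1 and 0.52 ± 0.35 for INSR, which are 3 receptors and a regulatory PI3K subunit, and the lowest were -1.41 ± 0.52 for TSC2, -1.24 ± 0.62 for SGK1, -0.88 ± 0.33 for PIK3R3 and -0.41 ± 0.25 for PIK3CD. LY294002 against T4 gave 1 call, SGK3, a kinase related to AKT, named here after its value was seen (0.61 ± 0.15, adjusted p = 0.0421). Without T4 sample 3 the calls of RHEB (0.41, adjusted p = 0.066) and SGK3 (0.61) were lost. SGK1 then differed by -2.06 between LY294002 and T4.

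A list of 30 other FOXO targets had 21 tested. Over all genes, 14.6% rose and 12.3% fell in T4 against S1. The shares were 6.46% higher and 8.44% lower in the agents against T4, and 11.8% and 11.4% in the agents against S1. In T4 against S1, 4 of the 21 rose and 4 fell. CAT, the catalase that breaks down hydrogen peroxide, fell by 1.71 ± 0.24 (adjusted p = 0.000218), PRDX3, a mitochondrial peroxiredoxin, fell by 0.64 (adjusted p = 0.00166), TNFSF10, the death ligand TRAIL, rose by 3.83 ± 0.65 (adjusted p = 0.000796), and EIF4EBP1, a repressor of translation under mTORC1, rose by 0.75 ± 0.19 (adjusted p = 0.00945). With the agents against T4, 5 rose and 1 fell: CDKN1B, the cell-cycle inhibitor p27, rose by 1.15 ± 0.19 (adjusted p = 0.00145), CAT by 1.29 ± 0.23 (adjusted p = 0.00223) and CDKN2B, the inhibitor p15, by 0.63 ± 0.17 (adjusted p = 0.0225), whereas BBC3, a cell-death gene, fell by 0.25 (adjusted p = 0.0346). Without T4 sample 3, 3 rose and 0 fell with the agents, and CDKN2B (0.54, adjusted p = 0.0888) and BBC3 (-0.28, adjusted p = 0.0522) missed the threshold. The list's median was -0.02 in T4 against S1 and 0.12 in the agents against T4. Without T4 sample 3 both medians changed sign, to 0.03 and -0.06. In T4 against S1, 6 of the 21 then rose and 3 fell. Against S1, 3 were higher and 1 lower in T4R. LY294002 gave 0 calls of 21 against the other agents, with CDKN1B (0.47 ± 0.26), GADD45B (0.40), KLF6 (0.35) and MXI1 (0.25) the highest and TNFSF10 (-0.76), CDKN2B (-0.46), ATG14 (-0.31) and EIF4EBP1 (-0.26) the lowest, and 1 call against T4, CDKN1B.

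Glucocorticoids share several of the 10 genes as targets, so 10 genes that respond to them were listed, of which 8 were tested. Over all genes, 14.6% rose and 12.3% fell in T4 against S1. The shares were 6.46% higher and 8.44% lower in the agents against T4, and 11.8% and 11.4% in the agents against S1. In T4 against S1, 1 rose and 2 fell: MT2A, a metallothionein, rose by 0.51 ± 0.07 (adjusted p = 0.000268), NR3C1, the glucocorticoid receptor, fell by 0.89 (adjusted p = 0.00105) and ZBTB16, a zinc-finger regulator, fell by 1.95 (adjusted p = 0.00646). With the agents against T4, NR3C1 rose by 0.66 ± 0.15 (adjusted p = 0.00882) and MT2A fell by 0.32 (adjusted p = 0.00851). TSC22D3, known as GILZ, gave 1.74 ± 0.58 (adjusted p = 0.0604) and FKBP5 1.24 ± 0.40 (adjusted p = 0.0541). Without T4 sample 3 TSC22D3 passed at 0.64 (adjusted p = 0.00548), and FKBP5 was 0.67 (adjusted p = 0.224). Against S1, 1 was higher and 0 lower in T4R, and LY294002 gave 0 calls against the other agents and 0 against T4. ARRDC4 is not analysed here.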

How the data were processed

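Total RNA of 15 samples was measured on Affymetrix U133A-type arrays, per the series' design text, after Trizol extraction and biotin labelling, per the labels' protocols. The deposited log2 values come in 2 tables, with 8 and 7 samples, and how the authors summarised, background-corrected and normalized them is not stated in the sources here. The log2 scale follows from the deposited values, which run from 6.21 to 14.5. Precision is limited by the number of arrays. Each table lists 22215 probe sets, of which the platform annotation assigned 1 gene to 19707, several to 614 and none to 1706, and for 188 the array types' annotations disagreed. Symbols were updated through the Entrez number for 19689 probe sets. For each of 12149 genes the brightest probe set on average was used, the dimmest 25% were left out, and 9111 genes were tested.

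Differences were tested with limma 3.58.1 in R 4.3.3 (lmFit, eBayes, 2-sided, Benjamini-Hochberg adjustment over all 9111 genes, threshold 0.05) over all 15 samples, with a term for the table beside the T4R, T4 and S1 groups. A second fit split T4R into LY294002 and the other 8 agents, and its lone LY294002 sample was assumed to vary like the other groups. T4 lies in the first table only, so T4 is compared with the second table's agents through S1 and the first table's agents. The spread within T4R also holds the differences between agents, and each fit pools the spread of its groups for every comparison, T4 against S1 included. The fits were checked on simulated data with known differences. S1 and T4 samples share the numbers 1 to 3 in their labels, and deviations of same-numbered samples correlated at 0.282, 0.315 and 0.391 across genes, so the numbers were taken as pairs in an alternative fit. With the table as a term that fit rests on numbers 1 and 2, which the check does not tell apart. S1 sample 1 with T4 sample 2 gave 0.314, and S1 sample 2 with T4 sample 1 gave 0.289. Deviations were taken from the group means, and sample 3 stood apart in both groups. The same-numbered values therefore mostly carry sample 3 against the others, and cannot show that the numbers are pairs.

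The text names all 10 genes and may name, from each list, those with the 4 smallest p in T4 against S1 and in the agents against T4, the 4 highest and lowest differences of LY294002 from the other agents, and FOXO1, FOXO3, AKT1 and ARRDC4; another gene of that rule is not reported here. The genes and lists were chosen with earlier results of these data known. Alternatives changed the filter, the choice of probe set, the normalization, the table term, the array weights, the samples fitted and single samples left out.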

Additional observations from a re-analysis of the deposited data

Results flagged for a closer look

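Among the 9 agents, 3 of the 10 genes had an agent whose deposited log2 value stood apart, its gap to the nearest agent taking more of the group's whole range than Dixon's 95% critical value allows. BCL6 was highest with LY294002 (10.95, next agent 10.62), a gap of 0.537 of the range. TXNIP was lowest with PD98059 (12.64, next agent 13.07), a gap of 0.512. CCNG2 was highest with dominant-negative Rap1 (10.14, next agent 9.57), a gap of 0.544. With the table effect removed, the gap shares were 0.482 for BCL6, 0.421 for TXNIP and 0.492 for CCNG2, all under that value. Chance passes it in about 1 of 20 groups, and each agent has 1 sample.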

How the results depend on the processing

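SESN1, CITED2 and PDK4 in T4 against S1, SESN1 and CITED2 in the agents against T4, and PDK4 in the agents against S1 kept their direction and call in every alternative that gave a test. With the median of gene means as the filter, PDK4 was left out and not tested. Of the 10 genes, the number lower in T4 against S1 was 5, and 4 to 7 over the alternatives. The number higher was 0, and 1 (TXNIP) with the replicate block beside the table, 1 without S1 sample 3 and T4 sample 3, and 0 to 1 when 1 sample at a time was left out. The number lower in the agents against S1 was 2, and 1 with no filter, 1 with genes under the median left out, 1 with the probe set of largest interquartile range, 1 with the mean of all probe sets, 4 with array weights and 1 to 2 leaving out 1 sample; the number higher was 0 to 1. The number higher with LY294002 against T4 was 1, and 2 with the mean of all probe sets, 0 without the table term, 3 with array weights, 2 without both samples 3 and 1 to 2 leaving out 1 sample. The fits with the replicate block held the S1 and T4 samples only. With the block but no table term, 5 genes fell in T4 against S1. The fit of all samples without block and table term had 6, CCNG2 being the one lost. With the block beside the table, the calls gained over the main fit of all samples were those of TXNIP, CCNG2 and GADD45A given above. Over the fit of S1 and T4 samples with the table term, those gained were TXNIP, CCNG2, BCL6 (adjusted p = 0.111 there) and KLF9 (0.066 there). GADD45A had already passed in that fit (adjusted p = 0.0162). No call was lost in either case. The fit without both samples 3 and the table effect from S1 alone were chosen after seeing the data.

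Directions that turned belonged to differences that had missed the threshold. In T4 against S1, SOD2 (0.04) gave -0.48 in the first table alone and with S1 and T4 samples only, -0.0215 with array weights, -0.022 with the replicate block beside the table or without S1 sample 3 and T4 sample 3, and -0.48 to 0.53 leaving out 1 sample. TXNIP (-0.23) gave 0.44 with array weights, 0.61 with the replicate block beside the table or without both samples 3, and -0.72 to 0.62 leaving out 1 sample. In the agents against T4, GADD45A (-0.01) gave 0.0083 and 0.0039 with quantile normalization within and across tables, 0.0381 in the first table, 0.0829 with array weights, 0.0454 without both samples 3 and -0.12 to 0.0403 leaving out 1 sample. CCNG2 (0.08) gave -0.27 with array weights, -0.34 without both samples 3 and -0.28 to 0.36 leaving out 1 sample, and TXNIP (0.62) gave -0.11, -0.24 and -0.23 to 1.12. In the agents against S1, IRS2 (-0.07) gave 0.0469 in the first table and without both samples 3 and -0.17 to 0.0469 leaving out 1 sample; CITED2 (-0.06) gave 0.34, 0.34 and -0.30 to 0.34, and 0.13 with array weights; SESN1 (-0.25) gave 0.0288 with array weights. For LY294002 against the other agents, GADD45A (-0.16) gave 0.22 without the table term and PDK4 (0.02) gave -0.0683 to 0.0672 leaving out 1 sample. For LY294002 against T4, TXNIP (0.67) gave -0.0313 with array weights, -0.18 without both samples 3 and -0.18 to 1.16 leaving out 1 sample; KLF9 (0.40) gave -0.0089 and -0.0089 to 0.62; CCNG2 (-0.19) gave -0.55 to 0.0938 and SOD2 (-0.09) -0.55 to 0.23 leaving out 1 sample. The cause was not tested.

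Over all genes, array weights raised the calls to 2246 higher and 1934 lower in T4 against S1 (1333 and 1119 without), 1482 and 1678 in the agents against T4 (589 and 769), 2007 and 1847 in the agents against S1 (1078 and 1038), 76 and 125 for LY294002 against the other agents (0 and 0), and 742 and 991 for LY294002 against T4 (105 and 207), with none of the 10 genes among the calls against the other agents. The replicate block beside the table gave 2000 higher in T4, and without the table term 744 lower. The agents against T4 had 390 higher without T4 sample 1 and 373 without T4 sample 3. LY294002 against T4 had 169 higher with quantile normalization within tables, 60 without the table term, 184 in the first table, 206 higher and 379 lower without both samples 3, 180 higher without S1 sample 3 and 190 without dominant-negative Rap1. Against the other agents, LY294002 had at most 3 higher and 6 lower in all other alternatives.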
